A study of Mus musculus with 7 samples.

Results

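The nuclear factor I (NFI) family comprises 4 transcription factor genes of the mouse, Nfia, Nfib, Nfic and Nfix. Its regions were the ChIP-seq peaks whose centre lay in one of these genes or within 50 kb of it (mm10, GENCODE M21 gene bounds). Of the 33442 peaks in the 3 tables of granule neuron precursors (GNPs), 167 met this rule. They were 161 of 31400 H3K27ac peaks and 6 of 1946 Chd7 peaks of WT GNPs, and 0 of 96 Chd7 peaks of Chd7-deficient GNPs. The peaks of topoisomerase Top2b in cultured cerebellar granule neurons (CGNs), which the rule did not use, were counted in the same windows.

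ChIP-seq sequences DNA recovered with an antibody, and peaks are stretches where that DNA is enriched. GNPs were isolated from the cerebellum of mouse pups (strain C57BL/6 in the labels, C57BL/6N in the study) at postnatal day 7, and CGNs were the same kind of cells after 48 h of culture. Libraries marked Chd7 KO came from Chd7-deficient cells, which in the study were those of Atoh1-Cre::Chd7 f/f mice. Atoh1-Cre acts in the granule lineage, and the study found Chd7 protein remaining in the posterior lobe of these mice. The labels give no genotype for the other libraries, which are called WT here as in the study. Each condition had 1 sample, so no difference between genotypes could be set against the spread between animals and no test was made. H3K27ac was measured in WT GNPs only, Chd7 in GNPs of both genotypes and Top2b in CGNs of both genotypes.

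NFI proteins bind DNA as dimers at the palindrome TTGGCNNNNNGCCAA, and more weakly at its single arm TTGGC. Nfia, Nfib and Nfix are known for their part in the migration, axon growth and dendrite formation of granule neurons, whereas Nfic is best known for tooth root development. H3K27ac marks active promoters and enhancers, and long clusters of it are called super-enhancers (SEs). Chd7 is an ATP-dependent chromatin remodeller, and Top2b is the type II topoisomerase of postmitotic neurons.

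The 3 GNP tables gave for each peak a pileup, or fragment coverage at its summit, and a fold enrichment over the local background. H3K27ac pileups can hold fractions, such as 229.65, whereas the Chd7 pileups given here are whole numbers. Pileups of H3K27ac and Chd7 may thus be on different scales and are not compared. The 3 tables hold no read totals. The study gives only a lower bound for the mapped reads, so the exact depth of each library is unknown. Peaks come from a population of cells, so that more cells with a mark and more signal per cell cannot be told apart. All 8 GNP marker genes had H3K27ac peaks within 50 kb, and 7 of them had an SE, with Atoh1 as the exception. None of the 20 marker genes of Purkinje cells, interneuron progenitors, glia, oligodendrocytes, microglia and endothelium had an SE, against 8.27% of protein-coding genes. Of these, 5 had 0 H3K27ac peaks within 50 kb, namely Calb1, Ptf1a, Aqp4, Aldh1l1 and Cdh5. This is close to the share of all protein-coding genes, of which 73.2% had at least 1 peak. Others of these markers were acetylated, such as Mbp of oligodendrocytes with 17 peaks, 11 of them in the gene, and Pecam1 of endothelium with 10, of fold enrichment up to 25.06.

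The DNA under the Chd7 summits is shown because these are the sites where Chd7 was found at the family. Each line is the plus strand of GRCm38 (mm10, RefSeq sequence), 151 bp centred on the summit. Capitals mark the NFI arm TTGGC (on either strand, so also GCCAA) and the E-boxes CAGCTG and CAGATG (the latter also as CATCTG), of which the last is a motif of proneural bHLH factors. The summit window of the remaining peak lies in a UTR and is not shown.
Nfib 1.44 kb upstream, chr4:82507149-82507299: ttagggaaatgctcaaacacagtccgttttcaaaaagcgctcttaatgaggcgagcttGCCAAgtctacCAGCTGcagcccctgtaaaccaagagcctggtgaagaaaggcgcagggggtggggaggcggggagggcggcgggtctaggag
Nfib 78.8 kb upstream, chr4:82584535-82584685: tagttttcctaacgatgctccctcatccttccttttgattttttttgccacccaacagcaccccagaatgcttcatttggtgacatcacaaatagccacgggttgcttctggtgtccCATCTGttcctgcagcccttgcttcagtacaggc
Nfib distal intron, chr4:82643632-82643782: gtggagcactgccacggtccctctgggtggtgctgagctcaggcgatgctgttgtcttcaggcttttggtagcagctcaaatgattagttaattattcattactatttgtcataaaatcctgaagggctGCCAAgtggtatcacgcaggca
Nfib near the distal start, chr4:82690382-82690532: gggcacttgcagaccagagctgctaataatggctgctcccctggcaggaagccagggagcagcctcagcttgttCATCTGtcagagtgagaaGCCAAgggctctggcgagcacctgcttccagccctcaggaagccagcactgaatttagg
Nfix window, chr8:84847029-84847179: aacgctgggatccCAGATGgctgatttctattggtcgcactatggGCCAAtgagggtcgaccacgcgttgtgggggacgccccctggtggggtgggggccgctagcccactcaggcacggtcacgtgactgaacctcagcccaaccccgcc

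The arm TTGGC was present in 5 of the 6 windows (83.3%), compared with 39.1% of 1902 Chd7 windows of the same length on assembled chromosomes and 24.0% of the H3K27ac summit windows. The only window without it was the site 78.8 kb upstream in Nfib. The E-box CAGATG occurred in 3 of 6 windows, against 19.1% of all Chd7 windows, and CAGCTG in 1 of 6, against 16.1%. The full palindrome was in none of the 6 and in 0.0526% of all Chd7 windows. These letters were matched on both strands, and a match describes the sequence only.

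H3K27ac covered the 4 genes densely. Nfia (chr4:97772734-98118874, plus strand, 346.1 kb) had 53 H3K27ac peaks in its window, Nfib (chr4:82290173-82705750, minus strand, 415.6 kb) had 44, Nfix (chr8:84699876-84800344, minus strand, 100.5 kb) had 42 and Nfic (chr10:81396186-81455635, minus strand, 59.4 kb) had 22. Over 22028 protein-coding genes the median was 2 peaks, and 73.2% had at least 1. As many peaks as at Nfia were found at 0.0318% of these genes, as many as at Nfib at 0.0499%, as many as at Nfix at 0.0681% and as many as at Nfic at 0.486%.

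**Figure D1:**
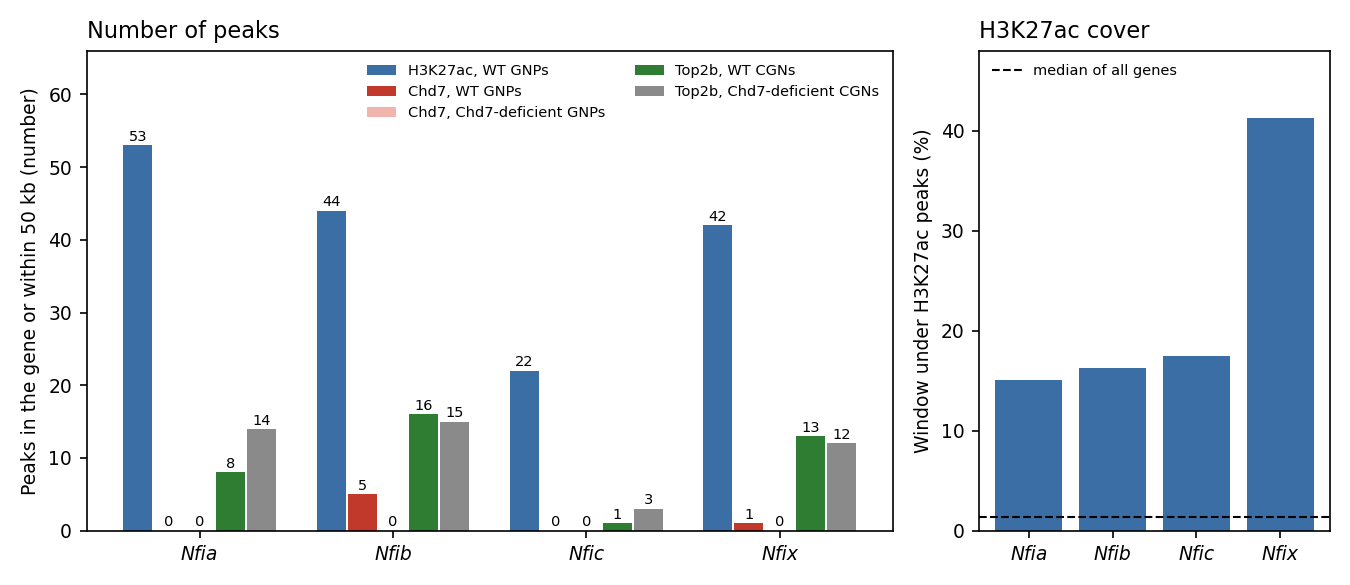
Number of peaks per gene window in the 5 tables (left) and the percentage of each window under H3K27ac peaks (right), with the median of all protein-coding genes as a dashed line. Each bar is 1 sample, so there are no error bars. H3K27ac peaks numbered 22 to 53, and Chd7 peaks were found in the windows of Nfib and Nfix.

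The NFI genes are longer than most, with a median protein-coding gene of 17.3 kb, so the counts were also set against length. Nfix had 21 H3K27ac peaks per 100 kb of window, Nfic 13.8, Nfia 11.9 and Nfib 8.5, where the median gene had 1.58. Such a density was reached by 0.0272% of genes for Nfix, 0.395% for Nfic, 0.885% for Nfia and 3.87% for Nfib. H3K27ac peaks covered 41.3% of the Nfix window, 17.5% of the Nfic window, 16.3% of the Nfib window and 15.1% of the Nfia window. The median cover was 1.34%. By number Nfia was the highest of the 4, whereas by density and by cover it was Nfix.

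Of the 161 peaks, 135 had their centre inside a gene, 17 upstream and 9 downstream. In the Nfix window 13 of 42 peaks lay outside the gene, in the Nfic window 6 of 22, and at Nfia and Nfib only 4 of 53 and 3 of 44. The summit was within 1 kb of any annotated start in 38 peaks, and in 123 it was farther away. Among all H3K27ac peaks, 38.9% had the summit within 1 kb of a start. Most of the peaks thus had their centre inside the gene, and most had their summit over 1 kb from any start. The gene itself takes up 346.1 of the 446.1 kb window at Nfia and 415.6 of 515.6 kb at Nfib. At Nfic it is 59.4 of 159.4 kb and at Nfix 100.5 of 200.5 kb. A wide peak can also cover a start that is far from its summit, as did the widest Nfix peak.

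**Figure D2:**
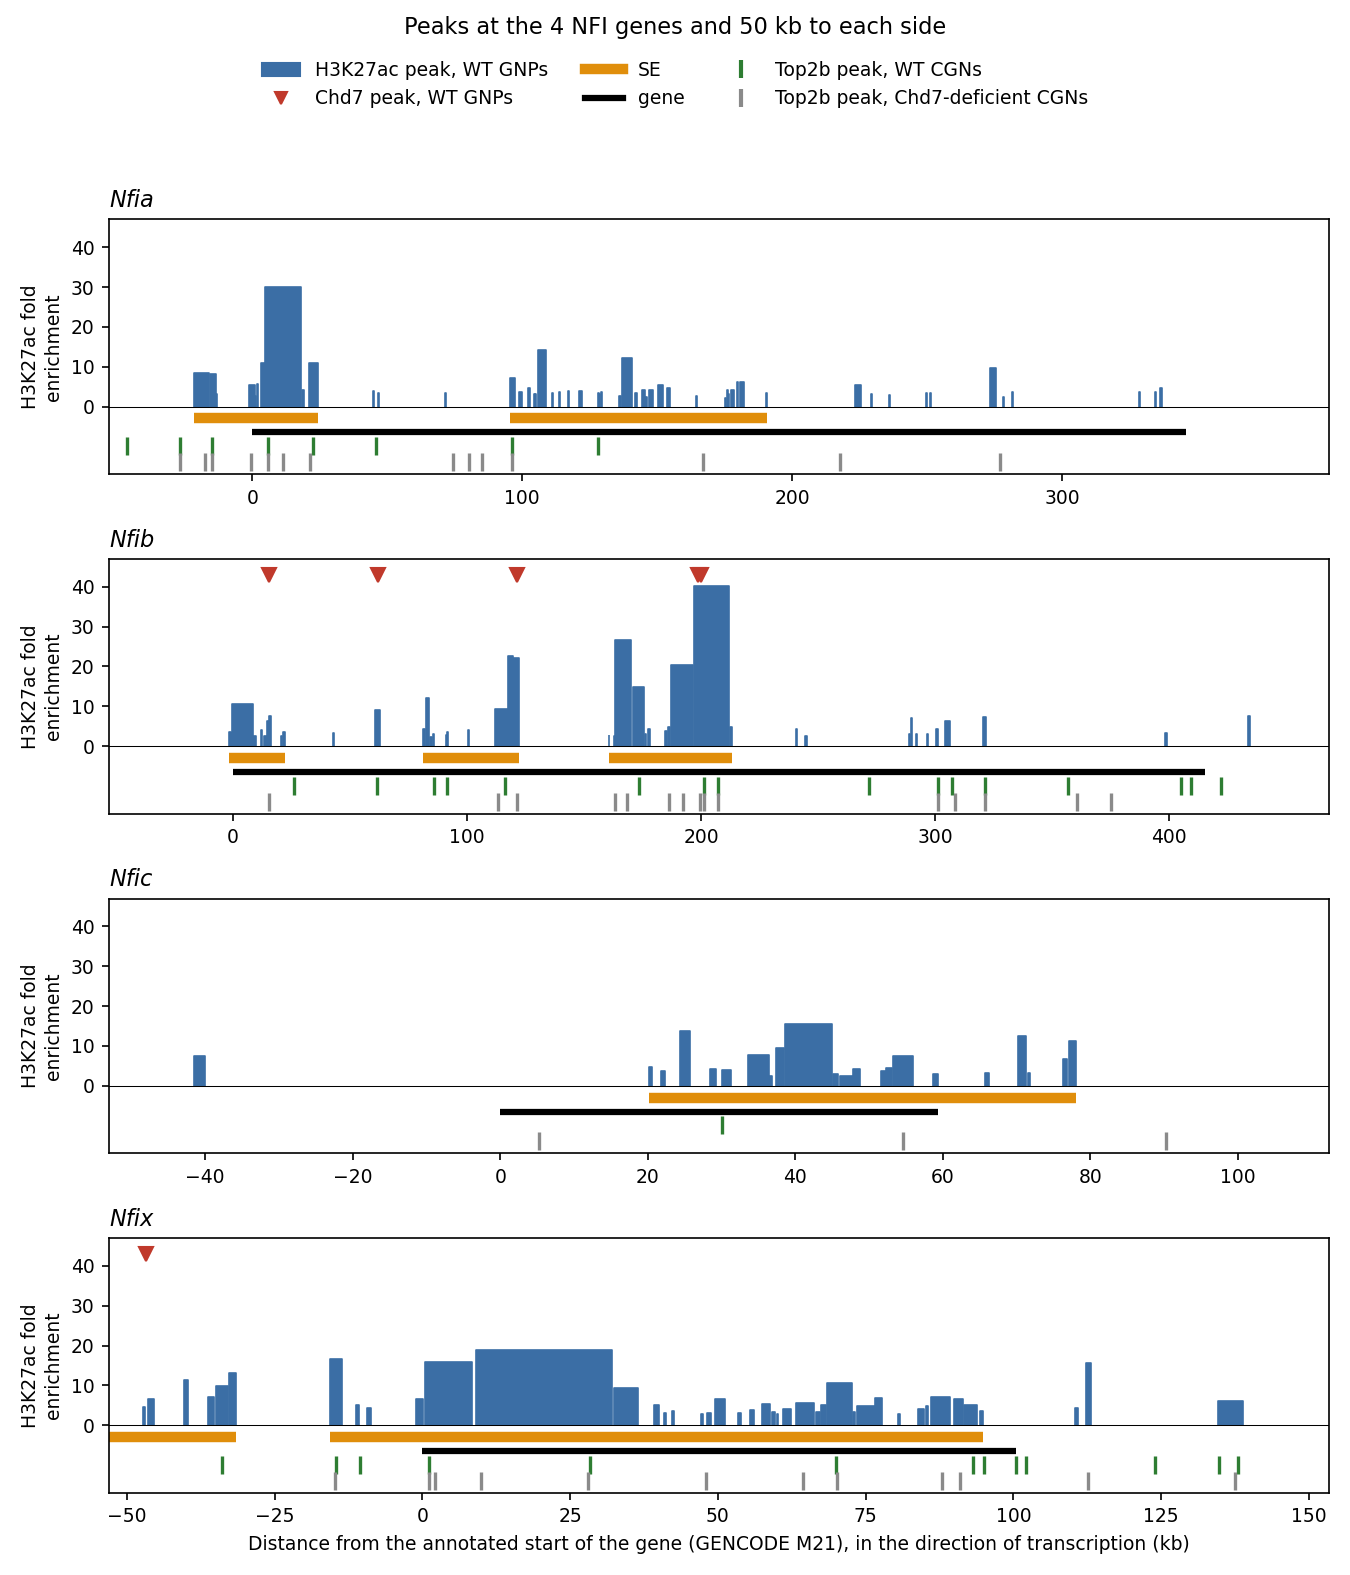
Peaks along each gene, drawn from the annotated start in the direction of transcription (x axis, kb). Blue boxes are H3K27ac peaks at their true width with fold enrichment as height, orange bars SEs, black bars the gene, red triangles Chd7 summits, and green and grey ticks Top2b peaks of WT and Chd7-deficient CGNs. The 5 Chd7 peaks of Nfib fall in the upstream part of the gene, and the tallest H3K27ac peak (fold enrichment 40.27) covers its main start.

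At Nfib the highest peak spanned 15333 bp (chr4:82493656-82508988) and reached 40.27 in fold enrichment, at a pileup of 229.65. It covered the start shared by 10 of the 12 transcripts and ranked 22nd of 31400 by fold enrichment and 9th by width. The next peaks of Nfib, both in introns, reached 26.72 (chr4:82535565-82542444) and 22.55 (chr4:82586108-82588271). Nfia had its highest peak (chr4:97777578-97790635, 13058 bp, fold enrichment 30.01, pileup 194.82) over the start used by 5 of its 8 transcripts. It was followed by 14.24 (chr4:97878686-97881627) and 12.17 (chr4:97909743-97913449), each over an internal start. Both genes had their highest and broadest peak over the main start, and Nfib had further broad peaks in its introns, among them the 6880 bp of the second highest.

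At Nfix and Nfic the highest peak was not over the main start. The highest Nfix peak (chr8:84768236-84791321) had a fold enrichment of only 18.96 but a width of 23086 bp, the second widest of all 31400. It lay over an internal start of Nfix. The next were an intergenic peak 14.6 kb upstream (chr8:84813874-84816036, 16.63) and a peak of 7984 bp just downstream of the start (chr8:84791965-84799948, 15.91). The start of Nfix itself had a peak of 1139 bp with a fold enrichment of 6.49. At Nfic, the highest peak (chr10:81410606-81417029, 6424 bp) reached 15.40 in an intron. It was followed by 13.66 over a start (chr10:81429910-81431291) and 12.37 in an intron of the neighbouring gene Dohh (chr10:81384367-81385395).

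The bulk of the peaks were modest. The median fold enrichment was 3.76 at Nfia, 4.07 at Nfib, 4.38 at Nfic and 5.13 at Nfix, and 4.35 over all H3K27ac peaks. Over the 161 peaks the quartiles were 3.29 and 7.06. The ranges began alike and differed at their upper ends, from 2.26 to 30.01 at Nfia, 2.25 to 40.27 at Nfib, 2.44 to 15.40 at Nfic and 2.79 to 18.96 at Nfix. Of the 161 peaks 10 were wider than 5 kb, 5 of them at Nfib, compared with 0.545% of all H3K27ac peaks. The typical width was ordinary at Nfia, with a median of 623 bp against 646 bp over all peaks.

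**Figure D3:**
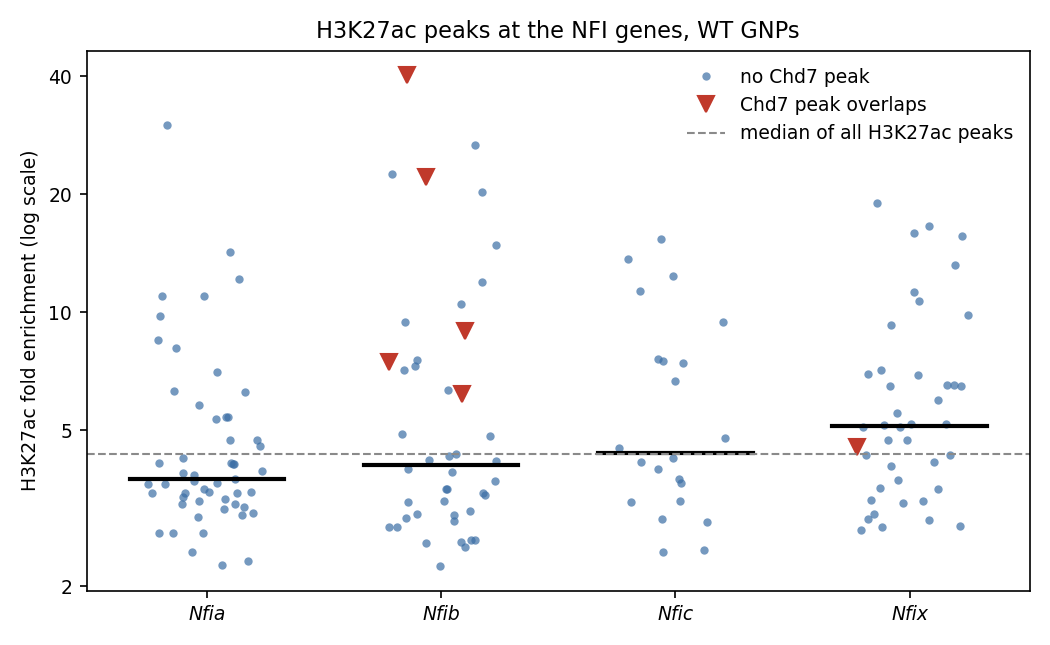
Fold enrichment (y axis, log scale) of each H3K27ac peak in the 4 windows, with the horizontal position within a gene spread for legibility. Black bars are medians per gene, the dashed line is the median of all 31400 peaks, and red triangles are peaks that a Chd7 peak overlaps. The medians lie between 3.76 and 5.13, and 5 of the 6 triangles are at Nfib.

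Transcript starts within 1 kb of each other were grouped, which gave 16 start positions in the 4 genes. H3K27ac covered 15 of them, and 10 of the 11 that give rise to protein-coding transcripts. The exception was the most upstream start of Nfic (position 81455635 of chromosome 10, 1 transcript). Over all protein-coding genes, with starts grouped in the same way, H3K27ac covered 20.2% of start positions and 28.8% of those with protein-coding transcripts. The main start of Nfic at 81427187, used by 3 of its 7 transcripts, had a narrow peak of 747 bp with a fold enrichment of 4.26, far below the values at the main starts of Nfib and Nfia.

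The promoter DNA before the main starts of Nfia, Nfib and Nfic is given to show its CpG content. Each line is 150 bp of GRCm38 in the direction of transcription, with CpG dinucleotides in capitals. The windows end 27 bp before the start for Nfia and at the start for Nfic. The Nfib window ends 972 bp before the start, because a RefSeq exon lies nearer to it. It lies inside an H3K27ac peak, and the Nfia window does so in part. The H3K27ac peak at the Nfic start ends at 81427191, so nearly all of the Nfic window lies outside it.
Nfia promoter, chr4:97777431-97777580, plus strand: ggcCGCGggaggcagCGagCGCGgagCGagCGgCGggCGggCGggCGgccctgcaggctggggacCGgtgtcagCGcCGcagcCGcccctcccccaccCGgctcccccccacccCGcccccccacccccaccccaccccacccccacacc
Nfib promoter, chr4:82506752-82506901, minus strand: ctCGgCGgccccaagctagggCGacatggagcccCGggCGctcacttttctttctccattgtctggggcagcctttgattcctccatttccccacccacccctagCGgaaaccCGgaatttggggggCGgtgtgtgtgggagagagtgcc
Nfic promoter, chr10:81427188-81427337, minus strand: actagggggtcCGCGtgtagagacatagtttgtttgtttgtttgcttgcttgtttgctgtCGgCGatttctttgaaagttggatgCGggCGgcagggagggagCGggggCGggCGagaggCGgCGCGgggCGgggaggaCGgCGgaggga

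These windows held 17 CpGs at Nfia, 15 at Nfic and 8 at Nfib. Over 21938 protein-coding genes the median was 6 CpGs in the same length, taken directly before the outermost annotated boundary of each gene. Those windows were neither set at main starts nor moved off exons, so the comparison is not of like windows.

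With the GENCODE gene bounds, Chd7 was found at Nfib and in the window of Nfix only. Nfib had 5 Chd7 peaks, all inside the gene as annotated, and 0.0817% of protein-coding genes had as many. Its window is 515.6 kb long, and the Chd7 counts were not set against length. At least 1 Chd7 peak within 50 kb was found for 14.3% of protein-coding genes, and for 2 of the 4 NFI genes. Nfia and Nfic had 0, and the nearest Chd7 peak was 123.3 kb from Nfia and 597.9 kb from Nfic.

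The first Nfib peak (chr4:82505480-82505878, UTR) had its summit 76 bp from an annotated start, a pileup of 21 and a fold enrichment of 5.28. The second (chr4:82506922-82507333, intron of the longest transcript) lay 1.44 kb upstream of the main starts and 792 bp from the nearest annotated start of any gene. It had a pileup of 20 and a fold enrichment of 4.72. Both were inside the 15333 bp H3K27ac peak. The third (chr4:82584471-82585020, intron) was 78.8 kb upstream of the main starts, with a pileup of 18 and a fold enrichment of 4.83, and lay wholly in an H3K27ac peak of fold enrichment 22.13.

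The last Nfib sites were nearer to the distal start of the single transcript Nfib-212. One (chr4:82643350-82643903, intron) was 62.0 kb downstream of that start, with a pileup of 26 and a fold enrichment of 4.14 on an H3K27ac peak of 8.97. The other (chr4:82690302-82690698, intron) was 15.3 kb downstream of it, with a pileup of 19 and a fold enrichment of 3.07. It bridged a pair of H3K27ac peaks of 7.45 and 6.19. By fold enrichment the 5 peaks ranked 211, 441, 374, 894 and 1784 of the 1946 Chd7 peaks, so that they were not among the strongest of the library.

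The Chd7 peak of the Nfix window (chr8:84846959-84847262, intergenic) lay 46.8 kb upstream of Nfix. It had a pileup of 24, a fold enrichment of 3.43 and rank 1604. Its summit was 170 bp upstream of the start of Calr, which encodes the calcium-binding chaperone calreticulin, and 84 bp from the start of the non-coding 1700122E12Rik on the other strand. It overlapped an H3K27ac peak of fold enrichment 4.54 by 21 bp. This peak is thus in the window by distance, and other starts are nearer to it than any start of Nfix.

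All 6 Chd7 peaks overlapped an H3K27ac peak (100%, 95% Wilson interval 61.0 to 100, counting error only), compared with 77.9% of all Chd7 peaks of WT GNPs. In the other direction, 6 of 161 H3K27ac peaks overlapped a Chd7 peak (3.73%, 1.72 to 7.89), against 4.98% of all H3K27ac peaks. At Nfib the share was 5 of 44 (11.4%, 4.95 to 24.0), and at Nfix 1 of 42 (2.38%, 0.422 to 12.3). At Nfia it was 0 of 53 (0 to 6.76) and at Nfic 0 of 22 (0 to 14.9). Each of these intervals includes the 4.98% of all peaks. Of the 24 NFI peaks with a fold enrichment of at least 10, Chd7 overlapped 2 (8.33%, 2.32 to 25.8), against 17.3% of all such peaks. With the GENCODE bounds, the other strongly acetylated sites of the family had no Chd7 peak. With the RefSeq bounds of Nfia, 2 Chd7 peaks overlapped an H3K27ac peak of fold enrichment 15.34.

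In Chd7-deficient GNPs, 0 Chd7 peaks were called in the 4 windows, where WT had 6. Within 50 kb of a gene, 0.227% of protein-coding genes had a Chd7 peak in these cells. The nearest one was 943.0 kb from Nfix. The table of these cells held 96 peaks in all, against 1946 in WT.

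The count per gene depends on where the gene is taken to begin. In NCBI RefSeq (GRCm38.p6), Nfia begins 194.7 kb before the GENCODE start, and Nfib begins at 82506751, which leaves out the part of the gene that only Nfib-212 covers. With these bounds the total of 6 Chd7 peaks was the same, but 3 fell at Nfia, 2 at Nfib, 0 at Nfic and 1 at Nfix, and the H3K27ac counts were 82, 22, 21 and 42. The 3 Nfia sites lay 154.0, 124.7 and 123.3 kb upstream of GENCODE Nfia, in introns of E130114P18Rik, with pileups of 29, 17 and 25 and fold enrichments of 6.85, 3.77 and 4.81. The first ranked 39th of 1946 and was higher than any Chd7 peak at Nfib. The RefSeq start of Nfia was under an H3K27ac peak of 11121 bp with a fold enrichment of 15.47, and all 3 sites were in 1 SE of 112.3 kb that ranked 26th. The absence of Chd7 from Nfia thus holds for the GENCODE bounds only.

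The summit windows of the highest and the nearest of these upstream sites are given in the same way, with the NFI arm and the E-box in capitals. The window of the third site, 124.7 kb upstream, held neither and is not shown.
Nfia upstream 154.0 kb, chr4:97618676-97618826: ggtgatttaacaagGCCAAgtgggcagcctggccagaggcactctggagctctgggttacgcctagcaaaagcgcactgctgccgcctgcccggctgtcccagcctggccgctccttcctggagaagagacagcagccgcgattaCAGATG
Nfia upstream 123.3 kb, chr4:97649508-97649658: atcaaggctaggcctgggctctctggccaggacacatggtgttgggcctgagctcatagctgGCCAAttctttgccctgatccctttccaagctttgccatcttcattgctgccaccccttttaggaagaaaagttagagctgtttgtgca

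SEs were approximated by joining neighbouring H3K27ac peaks, at the default stitching distance of SE callers, and ranking the 17539 regions by the sum of width times pileup. The 612 regions above the point where the scaled curve has slope 1 were taken as SEs. All 4 NFI genes had at least 1, compared with 8.27% of protein-coding genes, and 8 of the 24 regions in their windows were SEs. The share of genes was not adjusted for length, and longer windows can reach more regions. Nfix held the region ranked 3rd (110.5 kb, 33 peaks), Nfib the 6th (52.9 kb, 11 peaks), Nfia the 12th (46.2 kb, 10 peaks) and Nfic the 43rd (57.9 kb, 21 peaks). The remaining SEs ranked 96 and 206 at Nfib, 114 at Nfia and 437 in the Nfix window. Of the 161 H3K27ac peaks, 130 were in these SEs, where all SEs together held 3922 of the 31400.

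**Figure D4:**
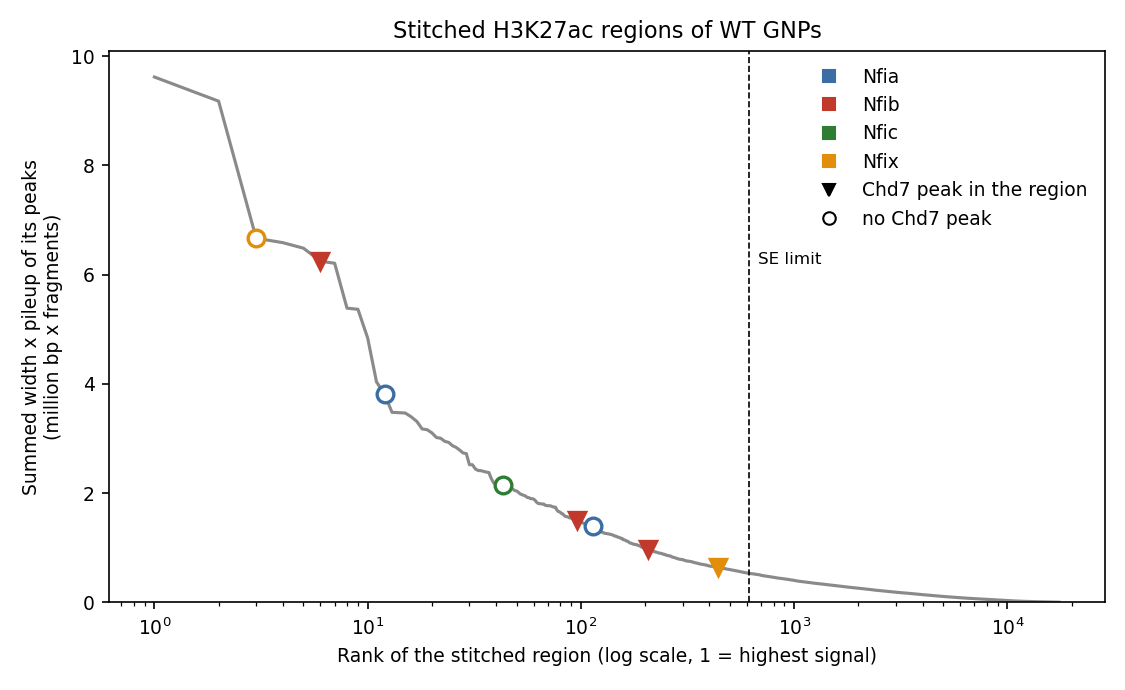
Summed width times pileup (y axis) of the 17539 stitched regions by rank (x axis, log scale). Symbols mark the 8 SEs of the NFI genes, with filled triangles where a Chd7 peak lies in the region. The SEs ranked 3rd, 12th and 43rd hold none, and the Nfib SE ranked 6th holds 2.

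A Chd7 peak was found in 4 of the 8 NFI SEs, against 40.5% of all SEs and 52.0% of the 50 highest ranked regions. These were the 3 SEs of Nfib, with 2, 1 and 1 Chd7 peaks, and the lowest ranked SE of the Nfix window. The leading SEs of Nfix, Nfia and Nfic held 0 Chd7 peaks, although they ranked 3rd, 12th and 43rd. The Chd7 peak at 82643350 of Nfib was the only 1 of the 6 outside an SE, in a region ranked 2849.

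Top2b peaks were next examined in CGNs. The deposited Top2b peaks have no score, so that only their positions could be compared, and the tables differ in size, with 17030 peaks in WT and 21505 in Chd7-deficient CGNs. In WT CGNs the windows held 16 Top2b peaks at Nfib, 13 at Nfix, 8 at Nfia and 1 at Nfic, 38 in all. In Chd7-deficient CGNs they held 15, 12, 14 and 3, or 44 in all. The numbers at Nfib and Nfix thus differed by 1 peak each, and those at Nfia and Nfic were higher in Chd7-deficient CGNs. Inside the gene alone Nfix had 6 WT peaks and 9 of Chd7-deficient CGNs. At least 1 WT Top2b peak was found for 62.0% of protein-coding genes, and as many as at Nfib for 0.0545%, at Nfix for 0.173% and at Nfia for 0.785%. These shares were not set against length, and the NFI genes are longer than most.

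Most sites in the 4 windows were called in 1 genotype only, though a larger part was shared than over all Top2b peaks. The study, which compared Top2b signal rather than positions alone, reported altered Top2b at a minority of its sites. Among the 38 WT sites, 13 were also called in Chd7-deficient CGNs (34.2%, 21.2 to 50.1), against 16.8% of all WT Top2b peaks. Of the 44 peaks of Chd7-deficient CGNs, 13 overlapped a WT peak (29.5%, 18.2 to 44.2), against 13.3% overall. The shared sites numbered 5 at Nfix, 4 at Nfia, 4 at Nfib and 0 at Nfic. They included sites within 1 kb of the main start of Nfia (chr4:97778241-97778636), of Nfib (chr4:82504316-82504711) and of Nfix (chr8:84799030-84799425). A further shared site (chr8:84814720-84815115) lay in the intergenic H3K27ac peak upstream of Nfix. With 1 library per genotype, a site called in 1 of them cannot be told apart from a site near the calling threshold.

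**Figure D5:**
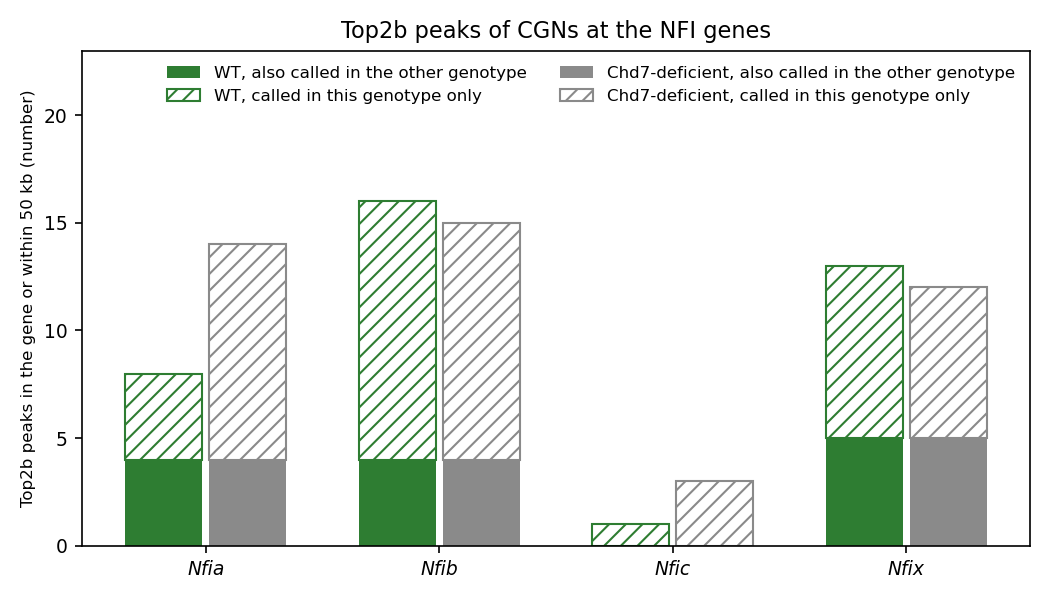
Number of Top2b peaks per gene window (y axis) in WT (green) and Chd7-deficient (grey) CGNs, with 1 library each. Filled parts are peaks that overlap a peak of the other genotype by at least 1 bp, hatched parts those that do not. Shared peaks number 4, 4, 0 and 5 at Nfia, Nfib, Nfic and Nfix.

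Top2b at these genes lay mainly on DNA that was acetylated in GNPs. H3K27ac peaks were overlapped by 23 of the 38 WT Top2b peaks (60.5%, 44.7 to 74.4), against 17.4% of all WT Top2b peaks. For Chd7-deficient CGNs it was 31 of 44 (70.5%, 55.8 to 81.8), against 26.6%. The windows are also more acetylated than most of the genome (15.1 to 41.3% of their length), and the part of this in the overlap was not tested. Of the 23 WT sites on H3K27ac, 12 were also called in Chd7-deficient CGNs (52.2%, 33.0 to 70.8), and the share was 41.5% among all WT Top2b peaks on H3K27ac.

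With the GENCODE bounds, 0 of the 6 Chd7 peaks overlapped a WT Top2b peak, against 16.6% of all Chd7 peaks. In Chd7-deficient CGNs 2 of the 6 were overlapped, against 34.2%, namely the Nfib sites 78.8 kb upstream of the main starts and 15.3 kb from the distal start. Of the 3 sites that RefSeq places in Nfia, those 154.0 and 123.3 kb upstream of the GENCODE gene overlapped a WT Top2b peak. Those at 154.0 and 124.7 kb overlapped a Top2b peak of Chd7-deficient CGNs. Chd7 was measured in GNPs and Top2b in CGNs, so that these sites come from different stages.

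Genes known from the literature to depend on NFI in granule neurons had fewer H3K27ac peaks than the NFI genes themselves. Of 9 such genes, 8 had H3K27ac within 50 kb, with a median of 2 peaks, as over all genes. Tiam1, an activator of Rac, had 3 in a window of 456.7 kb, comparable in length to that of Nfia (446.1 kb) with 53. Gabra6, a GABA-A receptor subunit of mature granule neurons, had 0. Cntn2, an axonal adhesion molecule, had 8 peaks and the only SE of the list, ranked 63rd, with a highest fold enrichment of 25.97. Chd7 was present at 2 of the 9, where 14.3% of all genes had a peak, namely at Cdh2, which encodes N-cadherin, and at Grin2c, an NMDA receptor subunit, with 1 peak each, and at none of Cntn2, Gabra6, Efnb1, Wnt7a, Kcnc1, Tiam1 and Etv1. WT Top2b peaks were found at all 9, against 62.0% of protein-coding genes.

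Of 7 genes placed upstream of or beside NFI in neural cells, all had H3K27ac peaks (73.2% of protein-coding genes) and 4 had Chd7 peaks (14.3%). These were the zinc finger genes Zic1 (1 peak) and Zic2 (2), Pax6 (1) and Pou3f2 (1), whereas Sox9, Atoh1 and Ezh2 had 0. The Atoh1 window was the only 1 of the 7 with a Chd7 peak in Chd7-deficient GNPs, against 0.227% of protein-coding genes. In the study these cells carried Atoh1-Cre, and whether this bears on that peak was not tested. SEs were present at Zic1 (rank 2), Zic2 (rank 7) and Pax6 (rank 24).

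The Zic and Sox families were set beside NFI as other transcription factor families of these cells. The 5 Zic genes had 4 to 11 H3K27ac peaks in windows of 104.4 to 126.9 kb, and the 4 Sox genes 2 to 8 in windows of 102.1 to 108.3 kb. The NFI genes had 22 to 53 in windows of 159.4 to 515.6 kb, so the windows differ in length. Per 100 kb, Zic4 had 8.7 peaks, slightly more than Nfib with 8.5. Among the GNP markers, Neurod1 (14.4) was denser than Nfia, Nfib and Nfic, and Pax6 (10.9) was denser than Nfib. A Chd7 peak was found at 4 of 5 Zic genes, 2 of 4 Sox genes and 2 of 4 NFI genes. Neighbouring Zic genes share windows and therefore peaks.

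The genes with the most similar peak numbers over the 5 tables were named for each member by the distance of log2(number of peaks + 1). For Nfia they were Ank3, Rbfox3 and Zmiz1 (distances 0.55, 0.573 and 0.601), which like Nfia had 0 Chd7 peaks. For Nfib they included E130114P18Rik and Ralgapa2 (0.606 and 0.891), with 3 Chd7 peaks each. For Nfic they were Eif6, Fam83c and Fancc (0.131, 0.276 and 0.276), and for Nfix they included Lsamp and Celf2 (0.371 and 0.799). E130114P18Rik is the gene whose introns hold the Chd7 sites upstream of Nfia. It also overlaps the first part of GENCODE Nfia, so its window shares peaks with that of Nfia.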

How the data were processed

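Peak positions of 5 ChIP-seq libraries were analysed (H3K27ac and Chd7 in WT GNPs, Chd7 in Chd7-deficient GNPs, Top2b in WT and Chd7-deficient CGNs), with 1 sample per condition. The 2 input libraries were not analysed here. According to the submitters' processing notes the authors trimmed reads (Trim Galore), mapped them to mm10 with Bowtie 1.0.0 and called peaks with MACS2 or, for Top2b, HOMER. In the tables the authors deposited, the pileup is a signal (fragment coverage at the summit). The fold enrichment and the −log10 q-value deposited by the authors had lost their decimal points and were restored by dividing by 100000. The deposited Top2b files hold positions only. Which control library was used for peak calling is not given in the sources used here.

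A peak belonged to a gene when its centre lay in the GENCODE M21 gene or within 50 kb. Peaks overlapped when they shared at least 1 bp. Shares have 95% Wilson intervals, which cover counting error only. Without replicates no test was made, and values are set beside the same values over all genes or peaks. Every Chd7 peak in the windows, the 3 H3K27ac peaks of the highest fold enrichment per gene, peaks at annotated starts, the genes of the fixed lists and the 3 most similar genes per member were named, and a few items under this rule are not reported here. The rule also asked for the 3 WT Top2b peaks of the highest score, which these files do not give, so shared sites were named instead, after they were seen. The members and lists were chosen with earlier results of these data known. Counting, overlap, stitching and motif search were tested on simulated data. The motifs searched were TTGGC, the full palindrome and the E-boxes. Sequences were read from the RefSeq GRCm38.p6 genome. Scripts ran in Python 3.11.15 with pandas 2.3.3, numpy 2.4.6, pysam 0.24.0, scipy 1.17.1 (intervals) and matplotlib 3.10.9 (plots).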

Additional observations from a re-analysis of the deposited data

How the results depend on the processing

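Windows of the gene alone, 10 kb and 100 kb, any base of a peak, peaks of −log10 q 5 or more only, other overlaps, other ways of building SEs and, chosen after seeing the data, the gene bounds of NCBI RefSeq were tried. Of 44 alternative values for 9 results, 43 stayed within 1.5 times the count or inside the interval of the share. The exception was the share of H3K27ac peaks that overlap Chd7, which was 0% when at least 50% of the H3K27ac peak had to be covered, since Chd7 peaks are narrower than most of the H3K27ac peaks they overlap. Some of the 44 values could hardly move, such as the 0 Chd7 peaks of Chd7-deficient GNPs. The limit of 1.5 times also took in 4 against 6 Chd7 peaks of WT GNPs. With RefSeq bounds the total of 6 Chd7 peaks was the same, although 3 of them, at Nfia, were other peaks. The values per gene moved more than the totals. With RefSeq bounds Chd7 peaks numbered 3 at Nfia and 2 at Nfib, and H3K27ac peaks 82 and 22, while Top2b peaks at Nfia numbered 17 in WT and 23 in Chd7-deficient CGNs. At −log10 q of 5 or more, 4 Chd7 peaks were left, all at Nfib, the peak of the Nfix window was lost, and Nfia had 34 H3K27ac peaks. Inside the genes alone, WT Top2b peaks numbered 5 at Nfia and 6 at Nfix, where Chd7-deficient CGNs had 10 and 9. A stricter threshold for Top2b was not run, because the files give no score. No paired analysis was possible because each condition has 1 sample and the labels give no replicate numbers, and for the same reason no replicate could be left out. The exact read depth of each library is unknown, which limits what the absence of a peak can show.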
